A study of Mus musculus with 18 samples.

Results

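The Bcl-2 family regulators of apoptosis were followed through the first 3 days of myocardial infarction in the mouse. The 10 genes described, out of 30583 in the deposited count table, are the anti-apoptotic members Bcl2, Bcl2l1, Bcl2a1b and Mcl1, the effectors Bax and Bak1, and the BH3-only members Bcl2l11, Pmaip1, Bbc3 and Bid. They were taken by name, through the symbols of their Ensembl identifiers (gene positions below are those of GENCODE M21 on GRCm38), and all 10 passed the filter on low counts that left 16311 genes for testing. The animals were male C57BL/6JR mice, 12 weeks old, in 6 groups of 3, with 1 RNA-seq library for each mouse. In 5 groups a ligature closed the left anterior descending coronary artery, and hearts were taken after 10 min, after 1 or 6 h, or after 24 or 72 h. The control group was a sham operation in which the suture was passed but not tied, labelled as time 0, so that no sham heart is matched to a later time. All animals had pentobarbital for surgery and isoflurane before killing, and RNA came from the left ventricle, for ligated hearts from the infarcted region.

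Proteins of this family decide whether the outer mitochondrial membrane is breached. Bax and Bak form the pores that release cytochrome c, the anti-apoptotic proteins hold them and the BH3-only proteins in check, and the BH3-only proteins relay stress signals by occupying the anti-apoptotic proteins or activating the effectors. Bcl-xL and Mcl-1 are known to protect cardiomyocytes, and much of the control of the family is exerted on the proteins, which these mRNA data do not measure.

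The libraries held 18199172 to 25062351 counts each. They are labelled as cardiomyocytes, but they carried the markers of a mixed tissue whose make-up changed over time. Summed over 12 cardiomyocyte markers, sham libraries had 87007 to 93045 CPM (counts scaled to a common library size) and 72 h libraries 21648 to 29159, with 12 of 12 lower. The 12 macrophage and monocyte markers summed to 376 to 436 CPM in sham libraries, to 776 to 871 after 24 h and to 4479 to 5744 after 72 h. The 12 neutrophil markers summed to 3.18 to 4.77 CPM in sham libraries, 118 to 852 after 6 h, 49.6 to 861 after 24 h and 70.5 to 88.8 after 72 h. Sums of 8 fibroblast markers were 805 to 915 CPM in sham and 12453 to 16067 at 72 h, and those of 6 proliferation markers 2.28 to 4.40 and 211 to 302. In such bulk samples fewer cells of a type and less RNA per cell cannot be told apart, and the part of these shifts in the results below was not tested. The neutrophil sum was highest in replicate 1 at 6 h and replicate 3 at 24 h, and these libraries lay farthest from the others of their group over the 500 most variable genes. Calls on the 10 genes that changed when both were left out are given beside the results.

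Of the 10 regulators, none changed at 10 min or 1 h, 3 were higher than sham at 6 h, and 7 were higher at 24 h and again 7 at 72 h, while no regulator was called lower than sham at any time. At 6 h the genes that rose were Bcl2l1, Mcl1 and Bid, and at 24 h Bcl2l1, Mcl1, Bid, Bcl2a1b, Bax, Bak1 and Pmaip1. The 7 at 72 h were Bcl2a1b, Bax, Bak1, Bcl2l11, Pmaip1, Bbc3 and Bid. A gene was called at a Benjamini-Hochberg adjusted p below 0.05 in edgeR's quasi-likelihood test, adjusted over all 16311 genes. Of all genes tested, edgeR called 0.0736% at 10 min and 0.294% at 1 h. At 6 h it called 28.4% (16.3% higher, 12.2% lower), at 24 h 43.8% (23.7% higher, 20.2% lower) and at 72 h 66.4% (34.2% higher, 32.2% lower). Counting instead the genes whose 3 libraries all lay above the 3 sham libraries gave 5 of the 10 at 6 h (23.1% of all genes), 7 at 24 h (28% of all genes) and 8 at 72 h (39.3% of all genes), and 1, Bcl2, lay wholly below sham at 6 h (21.2% of all genes). The median log2 fold change of the 10 genes against sham was -0.09 at 10 min, -0.18 at 1 h, 0.64 at 6 h, 0.83 at 24 h and 1.21 at 72 h, beside medians over all genes tested of 0.01, -0.01, -0.01, 0.01 and 0.03. At an unadjusted p below 0.05, 0 of the 10 differed from sham at 10 min and 1 at 1 h (Bcl2l1), and DESeq2 called 0 at both times. A test of any difference among the 6 groups called 10 of 10, where 78.4% of all genes were called. Levels below are FPKM, counts divided by gene length and by TMM-scaled library size, which allows comparison between genes as well as between libraries. Exon bases shared with other genes limit such comparisons for some of the 10, as given below.

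**Figure D1:**
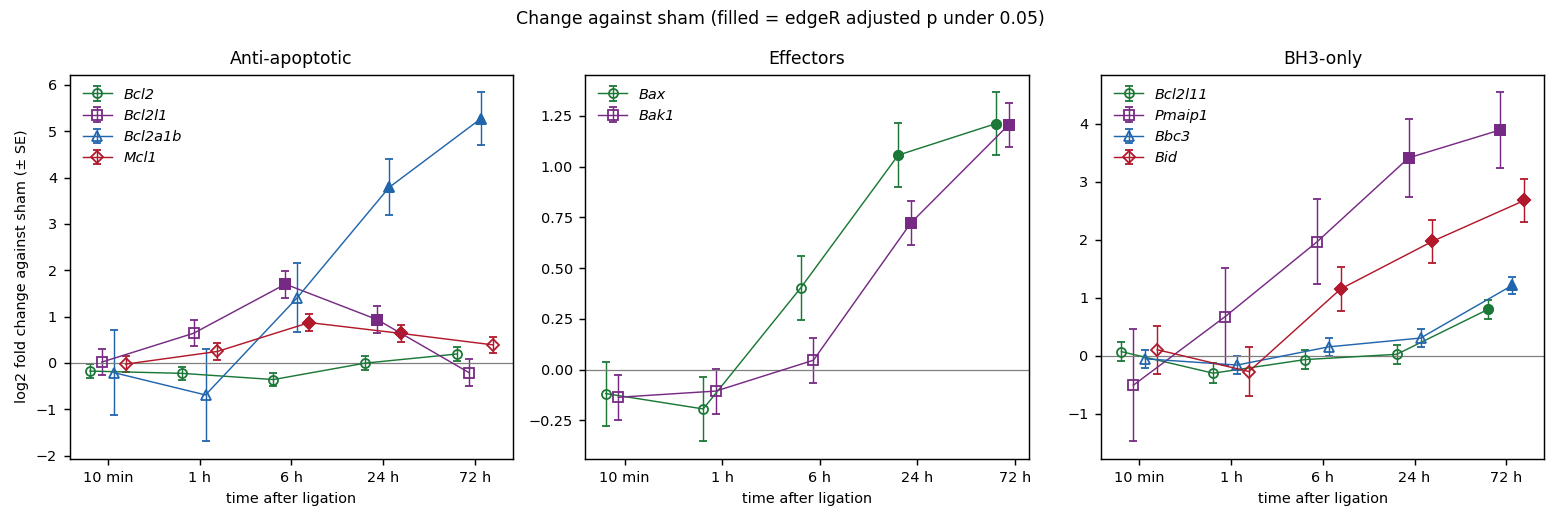
Log2 fold change against sham (vertical axis) at each time after ligation (horizontal axis) for the anti-apoptotic, effector and BH3-only genes. Points are edgeR estimates with their standard errors from 3 libraries per group, filled where the adjusted p was below 0.05, and the vertical scales differ between panels. Bcl2l1 peaked at 6 h at 1.70, whereas Bcl2a1b reached 5.27 at 72 h.

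Among the anti-apoptotic genes, Bcl2l1 and Mcl1 were highest at 6 h and Bcl2a1b at 72 h, while Bcl2 was not called against sham at any time. Mcl1 (ENSMUSG00000038612, chr3:95658788-95663176, plus strand) encodes a short-lived survival protein and was the most abundant of the 10 transcripts in sham. Its FPKM was 76.0, 84.4 and 75.7 in the 3 sham libraries, 82.5, 73.4 and 75.9 at 10 min and 82.4, 99.9 and 97.8 at 1 h. Sham and 10 min overlapped, and at 1 h replicate 1 lay within the sham range. At 6 h Mcl1 was at 189, 111 and 132 FPKM, at 24 h at 112, 94.9 and 160.3, and at 72 h at 96.5, 99.0 and 114. Every library at these 3 times was above every sham library. The log2 fold change was 0.87 ± 0.18 (SE) at 6 h (edgeR adjusted p = 0.00177) and 0.64 ± 0.18 at 24 h (edgeR adjusted p = 0.00838), and the 24 h call was lost without replicate 3 of that time, at 0.40. At 72 h Mcl1 was 0.39 ± 0.18 above sham, which missed the threshold in edgeR (adjusted p = 0.0637). It was called at 0.38 without both libraries that stand apart (edgeR adjusted p = 0.00312), at 0.40 with only the groups compared in the fit (edgeR adjusted p = 0.00259) and at 0.98 under library-total scaling (edgeR adjusted p = 2.98e-05). The 72 h difference also passed in DESeq2 (adjusted p = 0.0475), in both limma fits and where at least 10 counts were required in every library.

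Bcl2l1 (ENSMUSG00000007659, chr2:152780668-152831728, minus strand), the gene of Bcl-xL, had the largest called difference of the 10 at 6 h. In sham it was at 9.47, 12.1 and 13.5 FPKM and at 10 min at 14.9, 10.7 and 9.88. At 1 h the libraries split, with 21.4 and 22.9 FPKM in replicates 1 and 2 and 10.2 in replicate 3. The 3 libraries at 6 h were at 41.7, 27.5 and 44.5 FPKM, above every other library except replicate 3 at 24 h, which exceeded the lowest of them. At 24 h they were at 23.0, 16.0 and 28.0 FPKM and at 72 h at 9.76, 10.7 and 9.88, back inside the sham range. The log2 fold change against sham was 1.70 ± 0.29 at 6 h (edgeR adjusted p = 0.000655) and 0.94 ± 0.28 at 24 h (edgeR adjusted p = 0.0155). Leaving out sham replicate 1 or 24 h replicate 3 ended the 24 h call, and without both libraries that stand apart it was 0.74 (edgeR adjusted p = 0.109). From 24 to 72 h Bcl2l1 fell by 1.14 on the log2 scale (SE 0.28, edgeR adjusted p = 0.00372), the only decrease called among the 10 genes in any of the 9 comparisons. At 72 h the difference from sham was -0.21 ± 0.28 (edgeR adjusted p = 0.534) and 0.38 under scaling by library total, called under neither. The median of all genes tested at 72 h against sham was 0.61 under library-total scaling and 0.03 under TMM, so changes are reported relative to the TMM scale.

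Because Mcl1 and Bcl2l1 were both highest at 6 h, the sequence next to their RefSeq transcription starts is shown, from the GRCm38.p6 build, 5′ to 3′ on the gene's strand. Each run ends at the base before the start and lies at chr3:95658471-95658720 for Mcl1 (plus strand) and chr2:152831729-152831978 for Bcl2l1 (minus strand).
Mcl1: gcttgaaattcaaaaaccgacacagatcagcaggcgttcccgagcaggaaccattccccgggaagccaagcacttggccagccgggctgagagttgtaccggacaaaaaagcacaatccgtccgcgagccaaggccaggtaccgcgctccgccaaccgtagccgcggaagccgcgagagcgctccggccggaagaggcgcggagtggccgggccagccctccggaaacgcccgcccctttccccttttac
Bcl2l1: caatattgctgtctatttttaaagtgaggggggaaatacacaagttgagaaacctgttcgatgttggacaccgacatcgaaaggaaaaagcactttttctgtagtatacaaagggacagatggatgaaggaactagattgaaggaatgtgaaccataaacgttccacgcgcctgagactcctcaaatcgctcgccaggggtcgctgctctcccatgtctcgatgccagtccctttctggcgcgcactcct
The elements TGANTCA (AP-1), TTCNNNGAA (STAT) and TGACGTCA (CRE), the NF-kB element and the p53 half-site were searched on both strands in the 250 bases before each start. The search took in 14 windows covering 9 of the 10 genes, all but Pmaip1, which had no window. None of these elements occurred in the 2 runs above. The share of all 32851 promoter windows with a match was 6.75% for AP-1, 7.02% for STAT, 1.55% for CRE, 3.90% for NF-kB and 7.13% for the p53 half-site. A further Bcl2l1 start had 1 NF-kB match, 242 bases before it.

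Bcl2 (ENSMUSG00000057329, chr1:106538178-106714274, minus strand), the founding anti-apoptotic gene, was low and nearly flat. Sham libraries were at 1.27, 1.12 and 1.24 FPKM, 6 h libraries at 1.11, 0.878 and 0.843, and 72 h libraries at 1.40, 1.61 and 1.13. All 3 libraries at 6 h were below all 3 sham libraries, the closest pair at 1.11 and 1.12 FPKM, and 72 h overlapped sham. The 6 h difference was -0.36 ± 0.15 (edgeR adjusted p = 0.0727) and was called at -0.49 without 6 h replicate 1 or without both libraries that stand apart (edgeR adjusted p = 0.0359 and 0.0263), and at -0.47 under library-total scaling (edgeR adjusted p = 0.0308). At 72 h it was 0.19 ± 0.14 (edgeR adjusted p = 0.238), and it was called higher under library-total scaling, at 0.77, and in both limma fits. Ordered by mean level, the groups ran from 6 h, 1 h and 10 min through 24 h and sham to 72 h, and every neighbouring pair in that order overlapped.

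Bcl2a1b (ENSMUSG00000089929, chr9:89199209-89207827, plus strand) encodes a mouse copy of A1, an anti-apoptotic protein known mainly from blood cells, and changed more than any other of the 10. It had 6, 3 and 2 counts in sham, 1, 5 and 3 at 10 min and 4, 0 and 2 at 1 h, all too few to show a modest difference. At 6 h the libraries were at 1.17, 0.410 and 0.261 FPKM, at 24 h at 1.90, 1.99 and 5.62, and at 72 h at 8.92, 7.16 and 10.1. The ranges at 6, 24 and 72 h were separate from one another. The log2 fold change against sham was 3.79 ± 0.60 at 24 h (edgeR adjusted p = 0.000125) and 5.27 ± 0.58 at 72 h (edgeR adjusted p = 3.24e-07), both against the few sham counts. The 24 h value was 3.11 without replicate 3 of that time and remained called. Macrophage and monocyte marker sums were likewise separate between 6, 24 and 72 h, and the part of this shift was not tested.

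The A1 genes of the mouse are near-identical copies, and 14.22% of the 150-base windows of Bcl2a1b occur unchanged in another copy, so the division of counts among them is uncertain. Exons of Bcl2a1b also share 401 of their 817 bases with Gm29094 on the same strand. The effect of this overlap on its FPKM was not tested. Bcl2a1a and Bcl2a1d were called higher at 24 h, by 5.17 ± 0.92 and 4.31 ± 0.70 on the log2 scale (edgeR adjusted p = 0.000310 and 0.000171). At 24 h Bcl2a1a was at 1.42, 1.17 and 6.93 FPKM and Bcl2a1d at 3.15, 1.89 and 9.08, with replicate 3 highest for both, as it was for the neutrophil sum. Bcl2a1b (5.62 FPKM) and the macrophage and monocyte sum (871 CPM) were also highest in that replicate at 24 h. From 24 to 72 h Bcl2a1b rose by 1.48 ± 0.41 (edgeR adjusted p = 0.00583), or by 2.15 without 24 h replicate 3, whereas Bcl2a1a was 1.47 ± 0.60 lower (edgeR adjusted p = 0.04998, just inside the threshold) and Bcl2a1d differed by -0.50 ± 0.50 (edgeR adjusted p = 0.426). Whether the copies differed from one another in this step was not tested.

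**Figure D2:**
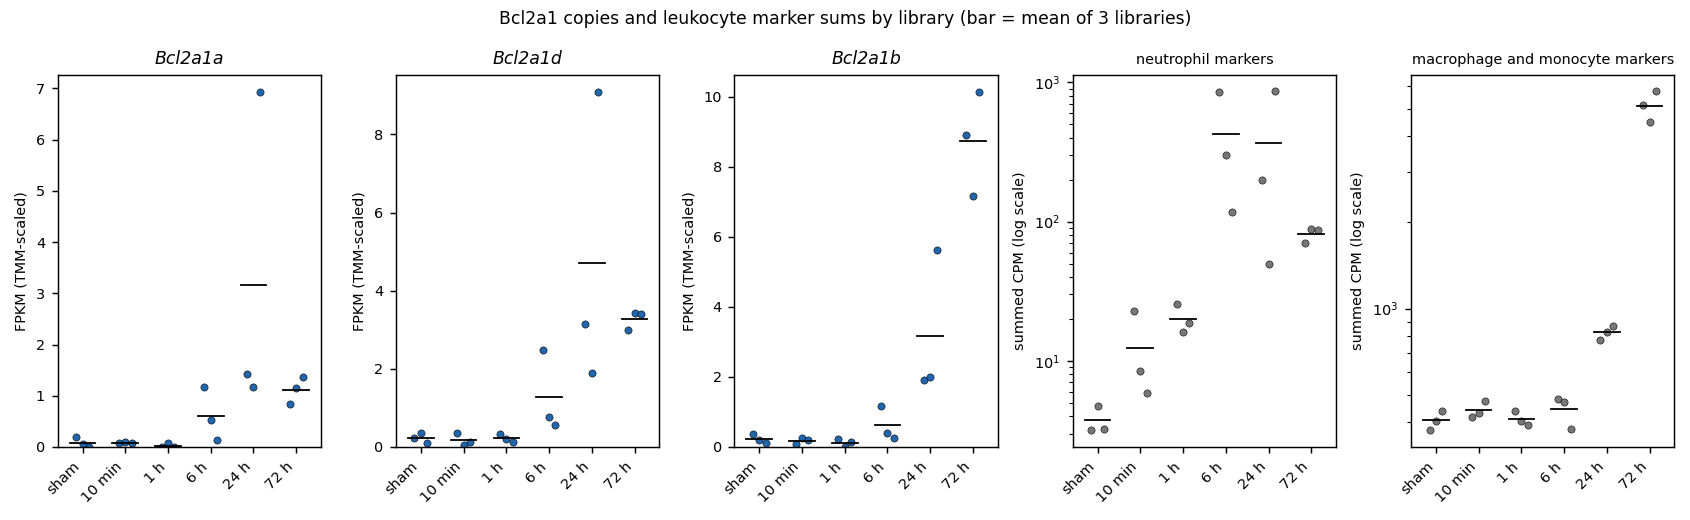
Levels of the 3 Bcl2a1 copies (FPKM, linear axes) and summed CPM of the neutrophil and macrophage and monocyte markers (log axes) in each of the 18 libraries by group, with points for libraries and bars for means. Bcl2a1b was highest at 72 h (7.16 to 10.1 FPKM), and Bcl2a1a and Bcl2a1d were highest in replicate 3 at 24 h (6.93 and 9.08 FPKM).

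The stretch before the Bcl2a1b start is shown because it was the gene with the largest change and its window held a match. Only bases outside annotated exons are printed, chr9:89199023-89199208 on the plus strand, ending 65 bases before the start, and capitals mark an AP-1 match 164 bases before the start.
Bcl2a1b: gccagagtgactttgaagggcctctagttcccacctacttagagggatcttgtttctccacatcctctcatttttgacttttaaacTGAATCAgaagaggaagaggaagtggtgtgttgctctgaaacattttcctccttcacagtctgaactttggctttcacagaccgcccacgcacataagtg

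The make-up of the 4 anti-apoptotic transcripts followed here shifted with these changes, as seen within each library, where no scaling between libraries enters. Mcl1 made up 85.7% ± 1.88 (SD, n = 3) of the summed FPKM of the 4 genes in sham, 78.3% ± 3.50 at 6 h and 83.6% ± 0.780 at 72 h. Bcl2l1 contributed 12.7% ± 2.03 in sham hearts, 20.9% ± 3.69 after 6 h and 8.23% ± 0.849 after 72 h. Bcl2a1b made up 0.247% ± 0.160 in sham hearts and 7.07% ± 0.890 after 72 h, with its FPKM subject to the shared bases given above. Both the 6 h and the 72 h ranges of the Bcl2l1 share were separate from the sham range, on opposite sides of it. These shares leave out Bcl2a1a, Bcl2a1d and a further anti-apoptotic gene, Bcl2l2. Bcl2l2 had a mean of 13.7 FPKM in sham and 10.1 at 72 h (-0.44 ± 0.09, edgeR adjusted p = 0.000196).

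Both effectors were higher than sham at 24 and 72 h. Bax (ENSMUSG00000003873, chr7:45461697-45466898, minus strand), which moves from the cytosol to mitochondria when activated, was at 17.8, 16.6 and 18.9 FPKM in sham, 16.8, 15.6 and 16.8 at 10 min and 14.9, 14.1 and 17.7 at 1 h. It was at 22.2, 22.2 and 26.1 FPKM at 6 h, 26.9, 34.4 and 49.9 at 24 h and 39.5, 42.6 and 41.5 at 72 h. The sham, 6 h and 24 h ranges were separate, in that order, and 24 and 72 h overlapped because of 24 h replicate 3. Against sham the 6 h difference was 0.40 ± 0.16 (edgeR adjusted p = 0.0620). It was called at 0.44 without both libraries that stand apart (edgeR adjusted p = 0.00780), and also with only the groups compared, with a replicate block and with no count filter (edgeR adjusted p = 0.0172, 0.0317 and 0.0475). Against 1 h it was 0.60 ± 0.16 (edgeR adjusted p = 0.0106), a call lost without 1 h replicate 2. Bax was 1.06 ± 0.16 above sham at 24 h (edgeR adjusted p = 5.60e-05) and 1.21 ± 0.16 at 72 h (edgeR adjusted p = 1.87e-06). The step from 6 to 24 h was 0.65 ± 0.15 (edgeR adjusted p = 0.00446) and 0.35 without both libraries that stand apart (edgeR adjusted p = 0.0509). Exons of Bax share 192 bases with Gm45808 on the same strand, and the effect on its level was not tested.

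Bak1 (ENSMUSG00000057789, chr17:27019810-27029009, minus strand), the effector that sits in the mitochondrial membrane, moved later and with less spread. It was at 12.5, 9.59 and 12.4 FPKM in sham and 11.9, 11.7 and 12.0 at 6 h, which overlapped, then at 16.5, 19.3 and 21.1 at 24 h and 25.9, 27.7 and 25.9 at 72 h. The 6, 24 and 72 h ranges were separate. The log2 fold change was 0.05 ± 0.11 at 6 h, 0.72 ± 0.11 at 24 h (edgeR adjusted p = 6.73e-05) and 1.21 ± 0.11 at 72 h (edgeR adjusted p = 2.41e-08). No library left out changed these calls. Exons of Bak1 overlap those of Ggnbp1 on the opposite strand, and whether strand was used in counting is not given in the sources used here. Ggnbp1 went the other way, with a mean of 3.73 FPKM in sham and 1.02 at 72 h.

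The sequence before the Bax start is shown because Bax is a textbook p53 target and its window held the only p53 half-site match among the 14 windows. It lies at chr7:45466899-45467148 on the minus strand, and capitals mark the match, 201 bases before the start. Of all promoter windows, 7.13% held such a match, and the windows of Bbc3, also a p53 target, held none.
Bax: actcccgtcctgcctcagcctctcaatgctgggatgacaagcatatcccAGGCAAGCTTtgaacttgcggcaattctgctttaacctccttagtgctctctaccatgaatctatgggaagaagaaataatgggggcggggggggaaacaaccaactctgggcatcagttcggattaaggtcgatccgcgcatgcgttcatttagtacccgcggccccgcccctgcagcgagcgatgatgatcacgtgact

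The ratio of Bax to Bcl2, counts per length within a library, is a common summary of the balance between the 2 genes. It was 14.0, 14.9 and 15.3 in sham, 17.6, 13.9 and 14.9 at 10 min and 15.9, 13.4 and 15.7 at 1 h. It was 20.0, 25.3 and 31.0 at 6 h, 24.5, 26.1 and 41.6 at 24 h and 28.2, 26.5 and 36.7 at 72 h. From 6 h on, every library was above every sham library. The log2 difference from sham was 0.77 at 6 h, 1.02 at 24 h and 1.03 at 72 h, each at p = 0.1 in an exact two-sided permutation test, the smallest p that 3 against 3 can give (0.167 after adjustment over the 5 times). At 10 min and 1 h it was 0.06 and 0.03 (exact permutation p = 0.9 and 0.7, adjusted 0.9 and 0.875). Bcl2 made up only 1.32% of the summed FPKM of the 4 anti-apoptotic genes in sham and 0.527% at 6 h. The mean of that sum was 91.8 FPKM in sham, 183 at 6 h, 149 at 24 h and 123 at 72 h. For Bax and Bak1 together the mean was 29.3, 35.4, 56.0 and 67.7 FPKM. The balance of these sums was not tested.

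**Figure D3:**
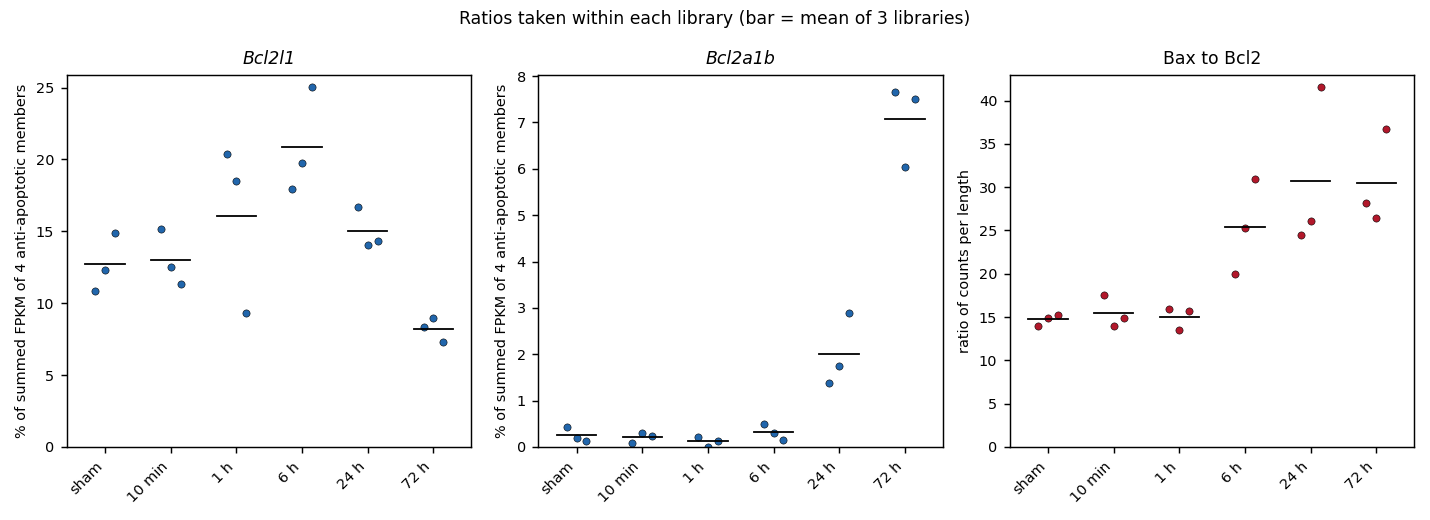
Share of Bcl2l1 and of Bcl2a1b in the summed FPKM of the 4 anti-apoptotic genes (percent), and the ratio of Bax to Bcl2 counts per length, in each of the 18 libraries by group. Points are libraries and bars are means. The Bcl2l1 share was 20.9% at 6 h and 8.23% at 72 h, and the Bax to Bcl2 ratio lay between 20.0 and 41.6 from 6 h on.

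By the edgeR calls on the TMM scale, the BH3-only genes divided into a pair that rose first at 72 h and a pair of scarce transcripts that rose at 24 h or before. Bbc3 (ENSMUSG00000002083, chr7:16308393-16318205, plus strand) encodes PUMA, which binds all the anti-apoptotic proteins, and was the most abundant of the 4. It was at 3.62, 4.25 and 3.95 FPKM in sham, 4.45, 4.18 and 6.02 at 24 h and 9.19, 8.49 and 9.75 at 72 h. The 72 h range was separate from all other groups. The difference from sham was 0.30 ± 0.15 at 24 h (edgeR adjusted p = 0.113) and 1.21 ± 0.15 at 72 h (edgeR adjusted p = 1.04e-06). At 24 h Bbc3 was called under library-total scaling, at 0.50 (edgeR adjusted p = 0.0158). Both limma fits called it too, on log2(FPKM + 1) and log2(FPKM + 0.1) (limma adjusted p = 0.0164 and 0.0153). Bcl2l11 (ENSMUSG00000027381, chr2:128126038-128162547, plus strand), the gene of BIM, was at 1.79, 2.02 and 1.64 FPKM in sham, 1.87, 1.69 and 1.98 at 24 h and 2.87, 3.10 and 3.53 at 72 h. It too stood apart at 72 h, by 0.80 ± 0.16 against sham (edgeR adjusted p = 0.000276) and 0.78 ± 0.16 against 24 h (edgeR adjusted p = 0.000589).

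One of the 3 RefSeq starts of Bbc3 had 2 overlapping NF-kB matches, 137 and 136 bases before it, and is shown for that reason. The run lies at chr7:16309333-16309582 on the plus strand, with the matched bases in capitals.
Bbc3: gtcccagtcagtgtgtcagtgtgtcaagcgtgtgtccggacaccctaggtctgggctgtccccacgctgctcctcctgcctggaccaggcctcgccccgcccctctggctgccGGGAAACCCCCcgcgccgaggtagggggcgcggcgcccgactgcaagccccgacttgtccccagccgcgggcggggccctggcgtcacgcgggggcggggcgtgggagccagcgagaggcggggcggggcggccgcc

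Bid (ENSMUSG00000004446, chr6:120891930-120916853, minus strand) encodes a protein that caspase-8 cleaves to link death receptors to mitochondria. It was at 0.242, 0.292 and 0.463 FPKM in sham and 0.228, 0.414 and 0.425 at 10 min. At 1 h it was at 0.136, 0.267 and 0.443 FPKM, within or below the sham range. Levels were 1.14, 0.593 and 0.525 FPKM at 6 h, 1.11, 1.04 and 1.84 at 24 h and 2.06, 2.46 and 1.94 at 72 h. All libraries from 6 h on were above all earlier ones. The log2 fold change was 1.15 ± 0.39 at 6 h (edgeR adjusted p = 0.0323), 1.97 ± 0.37 at 24 h (edgeR adjusted p = 0.000447) and 2.68 ± 0.37 at 72 h (edgeR adjusted p = 4.05e-06). The 6 h call was lost without sham replicate 1, sham replicate 2 or 6 h replicate 1, and without both libraries that stand apart it was 0.73 (edgeR adjusted p = 0.137). It was also lost in both limma fits, at 0.32 on log2(FPKM + 1) and 0.84 on log2(FPKM + 0.1) (limma adjusted p = 0.102 and 0.0636). Exons of Bid share 628 bases with Bcl2l13 on the opposite strand, and Bcl2l13 was 0.83 ± 0.13 lower at 72 h (edgeR adjusted p = 1.39e-05).

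Pmaip1 (ENSMUSG00000024521) encodes NOXA, which binds Mcl-1 and is a known p53 target. It had 4, 1 and 12 counts in sham and 3, 5 and 3 at 10 min. Its level was 0.653, 0.344 and 0.242 FPKM at 6 h, 0.718, 0.388 and 2.32 at 24 h and 1.32, 1.70 and 1.66 at 72 h. The 24 h group was spread over a wide range by replicate 3 and overlapped 6 and 72 h. The log2 fold change was 1.96 ± 0.73 at 6 h (edgeR adjusted p = 0.0550), 3.41 ± 0.67 at 24 h (edgeR adjusted p = 0.000737) and 3.89 ± 0.65 at 72 h (edgeR adjusted p = 5.59e-05). The 24 h value was 2.38 without 24 h replicate 3 and 4.47 without sham replicate 3, and the 72 h value 4.95 without sham replicate 3, all still called. The 6 h difference was called without sham replicate 3, at 3.02, or without 6 h replicate 3, at 2.23. Within the 4 BH3-only genes, Bid and Pmaip1 went from 5.36% ± 1.77 and 1.62% ± 1.48 (SD, n = 3) of the summed FPKM in sham to 13.5% ± 2.08 and 9.74% ± 1.12 at 72 h, while Bcl2l11 went from 29.4% ± 2.73 to 19.7% ± 1.17.

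**Figure D4:**
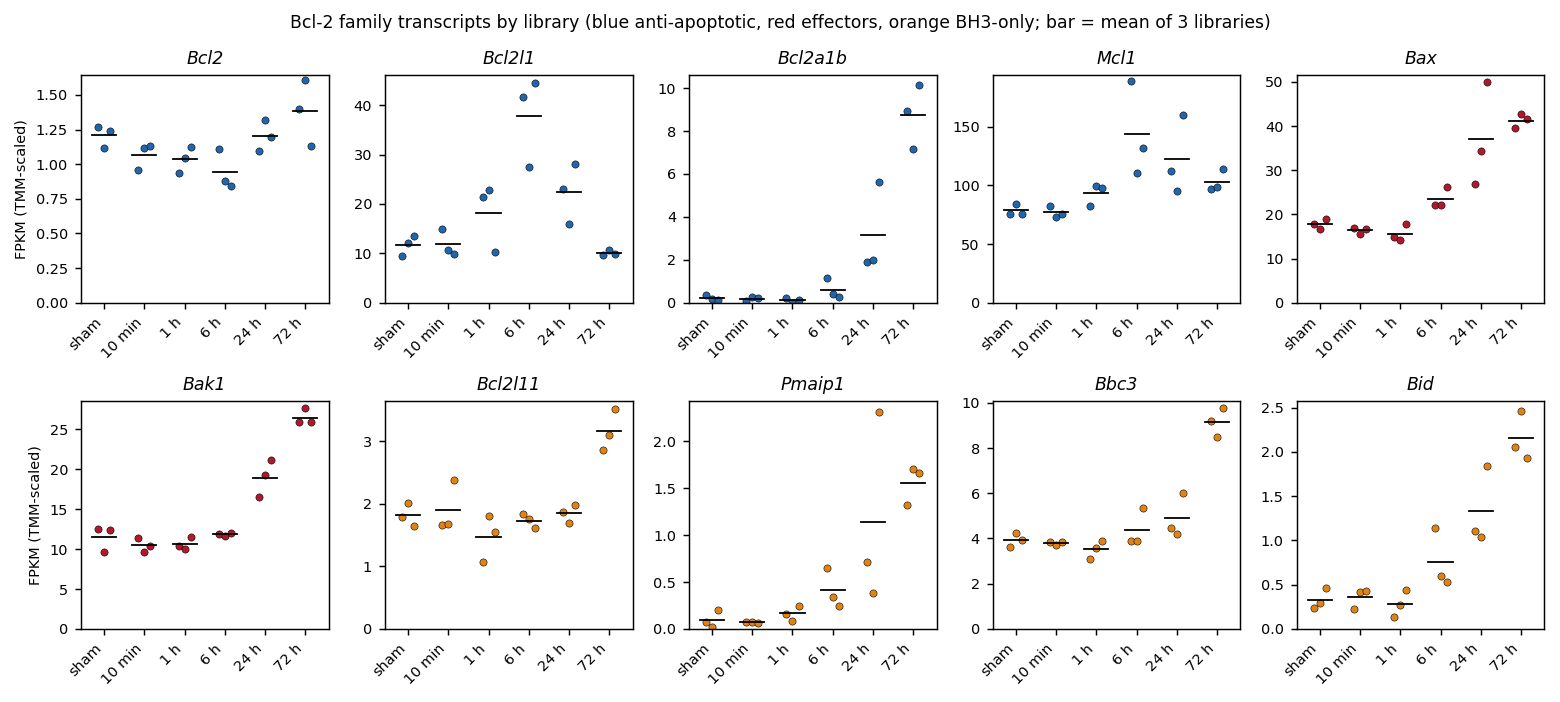
FPKM after TMM scaling (vertical axes, from 0, scaled for each gene) in each of the 18 libraries by group for the 10 genes, colored by role, with points for libraries and bars for the means of 3. Bcl2l1 and Mcl1 peak at 6 h, Bax, Bak1 and Bid have their highest means at 72 h, and Bbc3 and Bcl2l11 stand apart at 72 h only.

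Between consecutive times, 4 of the 10 genes rose from 1 to 6 h (Bcl2l1, Mcl1, Bax and Bid), 3 from 6 to 24 h (Bcl2a1b, Bax and Bak1) and 4 from 24 to 72 h (Bcl2a1b, Bak1, Bcl2l11 and Bbc3), and Bcl2l1 fell in the last step. Of all genes, 24.5% were called in the first of these steps (14.5% higher), 27.8% in the next (14.2% higher) and 50.5% in the last (24.4% higher, 26.1% lower). From 10 min to 1 h none was called (0.307% of all genes), 2 passed an unadjusted p below 0.05 (Bcl2l1 and Bcl2l11) and DESeq2 called 0. Without both libraries that stand apart, 2 were called from 1 to 6 h, 4 from 6 to 24 h and 8 from 24 to 72 h. The calls that ended were those of Bcl2l1 and Bid from 1 to 6 h, at 0.98 and 1.02 (edgeR adjusted p = 0.0559 and 0.0517), and that of Bax from 6 to 24 h. The calls gained were those of Bcl2 and Bid from 6 to 24 h, at 0.49 and 0.93 (edgeR adjusted p = 0.0390 and 0.0492), and those of Bax, Pmaip1 and Bid from 24 to 72 h, at 0.42, 1.51 and 1.00 (edgeR adjusted p = 0.00365, 0.00131 and 0.00409). With 1 library left out, the 1 to 6 h call of Bcl2l1 ended without 6 h replicate 1, that of Mcl1 without 6 h replicate 1 or 1 h replicate 1, and that of Bid without 6 h replicate 1, 1 h replicate 1 or 1 h replicate 2. From 6 to 24 h the Bcl2a1b step of 2.38 ± 0.52 was 3.18 without 6 h replicate 1 and 1.71 without 24 h replicate 3, and its call ended with only the groups compared in the fit (edgeR adjusted p = 0.0605).

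Other genes of the pathway were taken from 6 lists, and those given with values are among the 3 of each with the smallest p over the 6 groups. Beside the list counts, edgeR called 16.3% of all genes tested higher and 12.2% lower at 6 h. The shares were 23.7% and 20.2% at 24 h, and 34.2% and 32.2% at 72 h. Whether a list differed from these shares was not tested. Of 12 other Bcl-2 family genes tested, 2 were higher and 1 lower at 6 h, 3 and 2 at 24 h, and 5 and 4 at 72 h, with a median log2 fold change of 0.07 at 72 h. Bok, a further effector-like member, went from 3.60 to 18.1 FPKM at 72 h (2.33 ± 0.17, edgeR adjusted p = 1.76e-09), and the BH3-only gene Bmf from 1.51 to 3.11 (1.05 ± 0.14, edgeR adjusted p = 3.53e-06). At 24 h Bmf was lower than sham (-0.39 ± 0.15, edgeR adjusted p = 0.0410). Bnip3, a hypoxia-responsive mitophagy gene, rose by 0.80 ± 0.17 at 6 h (edgeR adjusted p = 0.00179) and was 0.96 below sham at 72 h on the log2 scale (-0.96 ± 0.17, edgeR adjusted p = 6.23e-05). Of 14 genes of the apoptosome, released factors and caspases, 8 were higher and 5 lower at 72 h. The apoptosome scaffold Apaf1 was 1.60 ± 0.15 above sham at 72 h (edgeR adjusted p = 3.11e-08), and the released factor Aifm1 was at -1.11 ± 0.11 (edgeR adjusted p = 5.43e-08).

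Of 9 inhibitor of apoptosis genes, 6 were higher and none lower at 24 h and at 72 h (23.7% and 34.2% of all genes were higher). The 6 were Birc3, Birc5 and the copies Naip1, Naip2, Naip5 and Naip6. Xiap, Birc2 and Birc6 were called at neither time. Birc5, which is also a mitosis gene, went from 0.0864 FPKM in sham to 6.33 at 72 h, beside the proliferation markers above, and Naip5 and Naip6, which belong to a set of near-identical copies, went from 0.247 to 1.57 and from 0.0831 to 0.774. Of 15 genes of p53 and its targets, 8 were higher at each of 6, 24 and 72 h and 0, 2 and 5 lower. Of all genes, 16.3%, 23.7% and 34.2% were higher at these times and 12.2%, 20.2% and 32.2% lower. Trp53 was 0.98 ± 0.15 and its target Phlda3 1.84 ± 0.13 above sham at 72 h, and the target Perp was at -1.06 ± 0.12 (edgeR adjusted p = 1.56e-05, 9.64e-10 and 4.00e-07). All 11 mitochondrial pore and membrane partners were lower at 72 h, with a median of -1.37, among them the channel gene Vdac1 (-1.40 ± 0.11), the nucleotide carrier gene Slc25a4 (-1.93 ± 0.15) and Ppif (-1.87 ± 0.14), the gene of cyclophilin D. Cardiomyocyte markers had a median of -2.07 at the same time. Of 8 regulators of Mcl-1 and BIM, 1 was higher at 72 h and 5 were lower. Atf4 rose by 1.30 ± 0.16 at 6 h (edgeR adjusted p = 3.01e-05), while Fbxw7, part of a ligase known to mark Mcl-1 for degradation, was at -0.61 ± 0.09 at 6 h (edgeR adjusted p = 0.000113) and -0.89 ± 0.09 at 72 h (edgeR adjusted p = 1.13e-07). Foxo1, a transcription factor known to act on Bcl2l11, was at -0.53 ± 0.10 at 72 h (edgeR adjusted p = 0.000178).

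The pattern of each gene over the 18 libraries was also set beside those of all other named genes, as a description by Pearson's r of log2 CPM. These libraries share 6 group means, so r reflects mostly the time course. The genes most alike were Cdc42ep4 (0.966) for Bcl2l1, Pim1 (0.952) for Mcl1, Irf5 (0.984) for Bcl2a1b, Tmem184b (0.867) for Bcl2, Pfn1 (0.981) for Bax and Cenpt (0.986) for Bak1. For the BH3-only genes they were Dkk2 (0.921) for Bcl2l11, Emb (0.963) for Pmaip1, Btk (0.974) for Bid and Nxpe1-ps (0.971) for Bbc3. Within the family, Bax and Bak1 were the most alike of all pairs (r = 0.938), barely ahead of Bcl2a1b with Bak1 (0.937) and with Bax (0.931). Bcl2l1 and Mcl1 had r = 0.727, and Bcl2 and Bcl2l1 had the lowest value (r = -0.578).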

How the data were processed

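RNA-seq libraries of 18 mouse hearts were analysed. Gene counts and FPKM were deposited by the authors; per the submitters' processing notes, cutadapt 1.18, HISAT2 2.1.0, featureCounts and the mm10 build were used, and strand use is not given in the sources used here. The deposited counts were whole numbers per Ensembl gene. The deposited FPKM values are those counts divided by gene length and library total; the 6 h FPKM columns of replicates 2 and 3 were found exchanged relative to the counts, so the FPKM reported here were recomputed from counts and the implied lengths with TMM factors (0.825 to 1.43).

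Counts were tested with edgeR 4.0.16 (R 4.3.3) by the quasi-likelihood test over all 18 libraries, with filterByExpr (16311 genes kept), and Benjamini-Hochberg adjustment over all genes; a gene was called at an adjusted p below 0.05, and SE is the log2 fold change over the square root of F. Alternatives were a replicate block, other scalings and filters, DESeq2 1.42.0, limma 3.58.1 on log2(FPKM + 1) or log2(FPKM + 0.1), each library left out, and, chosen after seeing the data, the libraries that stand apart left out together. The script was tested on simulated data. Replicates are separate mice; replicate numbers were not taken as pairs.

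The 10 genes and all lists were chosen with earlier results of these data known. Named genes were the 3 of each list with the smallest F test p (1 of them is not reported here), the 2 genes most correlated with each of the 10 (the first is given). Genes that share exons or reads with one of the 10 were named outside this rule, after their values were seen. So were Bcl2l2 and the inhibitor of apoptosis genes given without values. Promoter sequences are from RefSeq on GRCm38.p6.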

Additional observations from a re-analysis of the deposited data

Results flagged for a closer look

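Each of these steps between consecutive times is a difference between groups that passed the edgeR test on its own contrast, given as a log2 difference of the later minus the earlier time. From 1 to 6 h these were Bcl2l1 (1.06), Mcl1 (0.62), Bax (0.60) and Bid (1.43). Between 6 and 24 h they were Bcl2a1b (2.38), Bax (0.65) and Bak1 (0.68). From 24 to 72 h they were Bcl2l1 (-1.14), Bcl2a1b (1.48), Bak1 (0.48), Bcl2l11 (0.78) and Bbc3 (0.91).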

How the results depend on the processing

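The count of called genes at 10 min and 1 h against sham (0) held under every alternative run. At 72 h against sham 7 genes were called, and 6 to 9 under the alternatives. Library-total scaling and both limma fits gained the 72 h calls of Bcl2 and Mcl1. The Bax to Bcl2 ratio is taken within a library, so scalings, filters and test fits do not enter it. Its direction from 6 h on held with each library left out in turn. At 6 h against sham 3 genes were called, and 5 with a replicate block or with only the compared groups in the fit. Both limma fits lost the 6 h call of Bid, and limma on log2(FPKM + 0.1) gained those of Bcl2 and Pmaip1. The replicate numbers were not taken as pairs, and the block changed no other count. Of 27 same-numbered pairs, 2 had a correlation of deviations above 0.1, within a range of -0.256 to 0.252. Of the 18 libraries, 9 correlated best with libraries of their own number. With 3 libraries a group, this check cannot exclude a shared pairing or batch. From 1 to 6 h 4 genes were called, and 2 without both libraries that stand apart. From 6 to 24 h 3 were called, 7 under library-total scaling and in both limma fits, 5 in DESeq2 and 1 with only the groups compared. From 24 to 72 h 5 were called, 8 under library-total scaling, 9 in both limma fits and 8 without the libraries that stand apart. Leaving out 1 library at a time gave 2 to 4 called at 6 h against sham, 5 to 7 at 24 h, 7 to 7 at 72 h, 1 to 4 from 1 to 6 h, 3 to 6 from 6 to 24 h, 5 to 8 from 24 to 72 h and 9 to 10 over all times. The log2 Bax to Bcl2 difference ranged from -0.031 to 0.136 at 10 min, -0.0168 to 0.105 at 1 h, 0.61 to 0.93 at 6 h, 0.78 to 1.16 at 24 h and 0.89 to 1.13 at 72 h. The cause was not tested, except that leaving out libraries reduces their number. Bcl2a1b and Pmaip1 were not tested where at least 10 counts were required in every library, and few counts in sham limit the precision of both.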
